A study of Drosophila melanogaster with 48 samples.

Results

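Small nucleolar RNA (snoRNA) genes were taken as the genes whose FlyBase symbol starts with snoRNA: or snmRNA:, which gave 216 of the 15065 genes in the 12 deposited tables. Box class was read from the symbol alone. Psi in the symbol marks a box H/ACA guide of pseudouridylation (105 genes), and Me marks a box C/D guide of ribose methylation (72 genes). The class of the other 39 genes, among them the U3 copies, snoRNA:185 and snoRNA:Or-aca4, is not shown in this way. Reads fell in 11 of the 216 genes, and the other 205 were listed at 0 in all 28 RNA libraries. The 11 with reads held 5 of the 105 genes with Psi in the symbol, 1 of the 72 with Me and 5 of the other 39.

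snoRNAs are short nuclear RNAs that work with a set of core proteins and guide chemical modification of ribosomal RNA, while U3 acts in the cleavage of the ribosomal RNA precursor. In flies most of them are cut out of introns or exons of longer host transcripts, and some have a gene of their own. In budding yeast the nuclear exosome, with its exonuclease Rrp6, trims snoRNA precursors, and a tailing complex adds short poly(A) tails to the RNAs it hands to the exosome.

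The libraries came from S2 and S3, a pair of cultured Drosophila melanogaster cell lines derived from embryos, both transfected with 2 ug of double-stranded RNA (dsRNA) and collected on day 5. The dsRNA was against Rrp6, against Csl4 or Rrp40, which are RNA-binding subunits of the exosome cap, or against GFP, and the labels state that knockdown was checked by Western blot. RNA was either enriched for poly(A) or depleted of ribosomal RNA (RiboMinus). The deposited tables were made from 28 libraries. Poly(A) libraries numbered 2 for Rrp6, 2 for Csl4, 1 for Rrp40 and 2 for GFP dsRNA in S2 cells, and 2, 2, 2 and 3 in S3 cells in the same order. RiboMinus libraries numbered 2 for each dsRNA in S3 cells and 1 for each in S2 cells. Within a line and fraction the 3 knockdowns share their GFP libraries. The labels call the replicates biological, and nothing says that they came from separate cultures. The p-values thus measure the spread between these libraries, which may be technical. In the S3 RiboMinus set that spread was pooled over genes, with no weight on a gene's own.

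Libraries of a group differed widely in depth, so each is called the deeper or the shallower one. S2 poly(A) libraries held 5737608 to 8378647 assigned reads when deeper and 532934 to 1457393 when shallower, and S3 poly(A) libraries held 3055056 to 69426568 and 602269 to 1451054. S3 RiboMinus libraries held 6217631 to 9212060 reads when deeper and 108782 to 138219 when shallower, and the S2 RiboMinus libraries held 67743 to 157282. Reads of Rrp6 were more numerous under Rrp6 dsRNA than under GFP dsRNA, by 8.63 ± 0.40 in S3 RiboMinus libraries, 3.45 ± 0.34 in the S2 poly(A) set and 4.97 ± 1.07 in the S3 poly(A) set (log2, ± SE, edgeR adjusted p = 1.43e-96, 1.09e-07 and 0.00633). The targeted gene was also higher under Csl4 and Rrp40 dsRNA in S3 RiboMinus RNA (7.90 ± 0.39 and 7.56 ± 0.40, edgeR adjusted p = 2.42e-87 and 3.06e-75), while Csl4 was not called under Csl4 dsRNA in S2 poly(A) RNA (0.69 ± 0.36, edgeR adjusted p = 0.455). These reads do not show a loss of the targeted mRNA, and the groups are called by the dsRNA of their labels. The 3 targeted genes together took 0.0193% of the deeper Rrp40 S3 poly(A) library and 1.43% of the shallower one, against 0.00843 to 0.0151% of the GFP libraries. In Csl4 S2 poly(A) RNA they took 0.0402 and 0.0191%, against 0.0268 and 0.0273% under GFP dsRNA. Of 7 hemocyte markers, Pxn, srp, Hml and ush had reads in 8 of 8 GFP libraries, pnr in 6, He in 5 and NimC1 in 3. Of other tissues, the neuron markers elav and brp had reads in 8 and 7, and the muscle marker Mef2 in 8. The germline marker nanos had reads in 7, and the ovary soma markers Fas3 and tj in 6 and 1 of 8. Having reads thus does not set the lines apart as hemocytes. In these libraries, per 1000000 assigned reads, Pxn had 245 to 4581, srp 105 to 659, Hml 28.0 to 337 and ush 63.0 to 218. The hemocyte markers pnr, He and NimC1 had at most 251, 4.12 and 0.804. Mef2 had 25.4 to 266, brp 0 to 221 and elav 11.7 to 65.1, with Fas3, nanos and tj at most 10.5, 8.51 and 0.485. No length is applied, so levels of different genes are not comparable, and these markers do not decide whether the lines are hemocytes. Under Rrp6 dsRNA 1 of 6 hemocyte markers tested was called in S2 poly(A) RNA, where Pxn fell (-1.19 ± 0.23), and 2 of 4 in S3 poly(A) RNA, where Pxn fell (-1.24 ± 0.35) and ush rose (1.37 ± 0.27), beside 20.2% of all genes called higher and 16.9% lower in the S2 set and 19.7% and 16.4% in the S3 set. Of the 2 neuron markers, brp rose in all 3 sets with replicates (2.11, 3.54 and 1.84, edgeR adjusted p = 1.01e-06, 0.00506 and 0.038) and elav in the S2 poly(A) and S3 RiboMinus sets (1.32 and 1.12). Fas3, of the ovary soma list, rose in S2 poly(A) RNA (1.70 ± 0.38). The part of these changes in the results below was not tested.

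Position separated the snoRNA genes with reads from those listed at 0. In the RefSeq Release 6 annotation, 207 of the 216 genes lie inside another gene, and 205 of these 207 were listed at 0. All 9 genes that lie outside other genes had reads. The exceptions inside another gene were snoRNA:Or-aca4, inside CG10936 and CG44403, and snoRNA:Psi28S-2622, inside stet. Reads were counted with build dm3, so positions in the annotation used for counting may differ. Strand was not used to find enclosing genes. Of the 205 genes at 0, 47 lie in a Uhg gene (a noncoding snoRNA host gene), 68 in a ribosomal protein gene, 89 in another protein-coding gene and 1 in another kind of gene. Arpc2, a subunit of the Arp2/3 actin nucleator, encloses 17 of them, Uhg1 16, dom, a chromatin remodeller, 15, and RpS5a 14.

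Other kinds of gene were also listed at 0 more often when inside another gene. Protein-coding genes were at 0 in 575 of 1708 cases inside (33.7%) and 345 of 11167 outside (3.09%). For tRNA genes the shares were 40.7% of 135 inside and 6.58% of 152 outside, for miRNA genes 70.0% of 130 and 36.1% of 36, and for snRNA genes 8 of 14 and 0 of 15. nop5, which encodes a core protein of box C/D particles, was itself at 0 in all libraries, and it overlaps x16 and snoRNA:nop5-x16-a. Reads that fell on several genes were set aside as ambiguous in the deposited tables, and their share was 1.83 to 2.47% in poly(A) and 3.70 to 8.75% in RiboMinus libraries. A value of 0 for these 205 genes is not read here as absence of the snoRNA, and the results below rest on the 11 others. The part of the setting aside in the zeros was not tested.

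**Figure D1:**
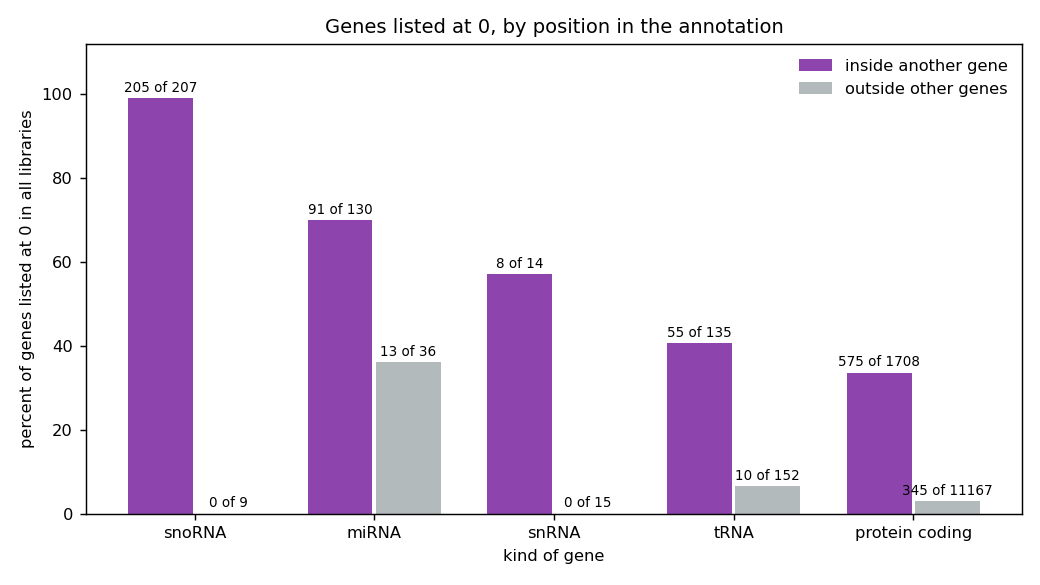
Percent of genes (y axis) listed at 0 in all 28 libraries for 5 kinds of gene (x axis), split into genes inside another gene (purple) and outside other genes (grey), with the counts above the bars. Of the snoRNA genes, 205 of 207 inside another gene and 0 of 9 outside were at 0.

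snoRNA genes took a small share of the reads in poly(A) RNA and a larger one in RiboMinus RNA. The share of assigned reads ran from 0.00692 to 0.160% over 7 S2 poly(A) libraries (median 0.0629%) and from 0.0109 to 0.127% over 9 S3 poly(A) libraries (median 0.0276%). In RiboMinus RNA it ran from 1.14 to 3.46% over 4 S2 libraries (median 1.9%) and from 1.47 to 3.07% over 8 S3 libraries (median 2.30%). The 2 fractions did not overlap in either line. In S2 poly(A) RNA the Rrp6 libraries had 0.160% (deeper) and 0.109% (shallower), above the 0.00692 to 0.0629% of the other 5 libraries. In S3 poly(A) RNA the highest share was that of the deeper Rrp40 library, 0.127%, and the Rrp6 libraries, with 0.0251 and 0.0503%, overlapped with the GFP libraries, with 0.0109 to 0.0422%.

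Of the 11 genes with reads, 7 had reads in all 28 libraries. snoRNA:Psi18S-176 (FBgn0086659), which guides a pseudouridine of 18S ribosomal RNA, held the most reads, 395988 over all libraries, followed by snoRNA:Psi28S-2622 with 157459, snoRNA:185 (FBgn0065076) with 112769 and snoRNA:Or-aca4 with 107132. snoRNA:Psi28S-3342 held 77356 reads, snoRNA:U3:9B (FBgn0065046) 76884 and snoRNA:Psi28S-1153 (FBgn0083006) 10514. Among the sparse genes, snoRNA:Psi18S-301 had 4214 reads in 24 libraries, snoRNA:Me18S-A1806 3019 in 21, snoRNA:U3:54Ab 153 in 12 and snoRNA:U3:54Aa 3 in 2. The U3 copies resemble each other in sequence, and a row of the deposited tables sets aside reads without a unique alignment, so the split between copies is uncertain. Levels are given as RPM, a gene's reads scaled to a library total of 1000000 reads assigned to genes. Levels of different snoRNA genes are not comparable here, since no length is applied.

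**Figure D2:**
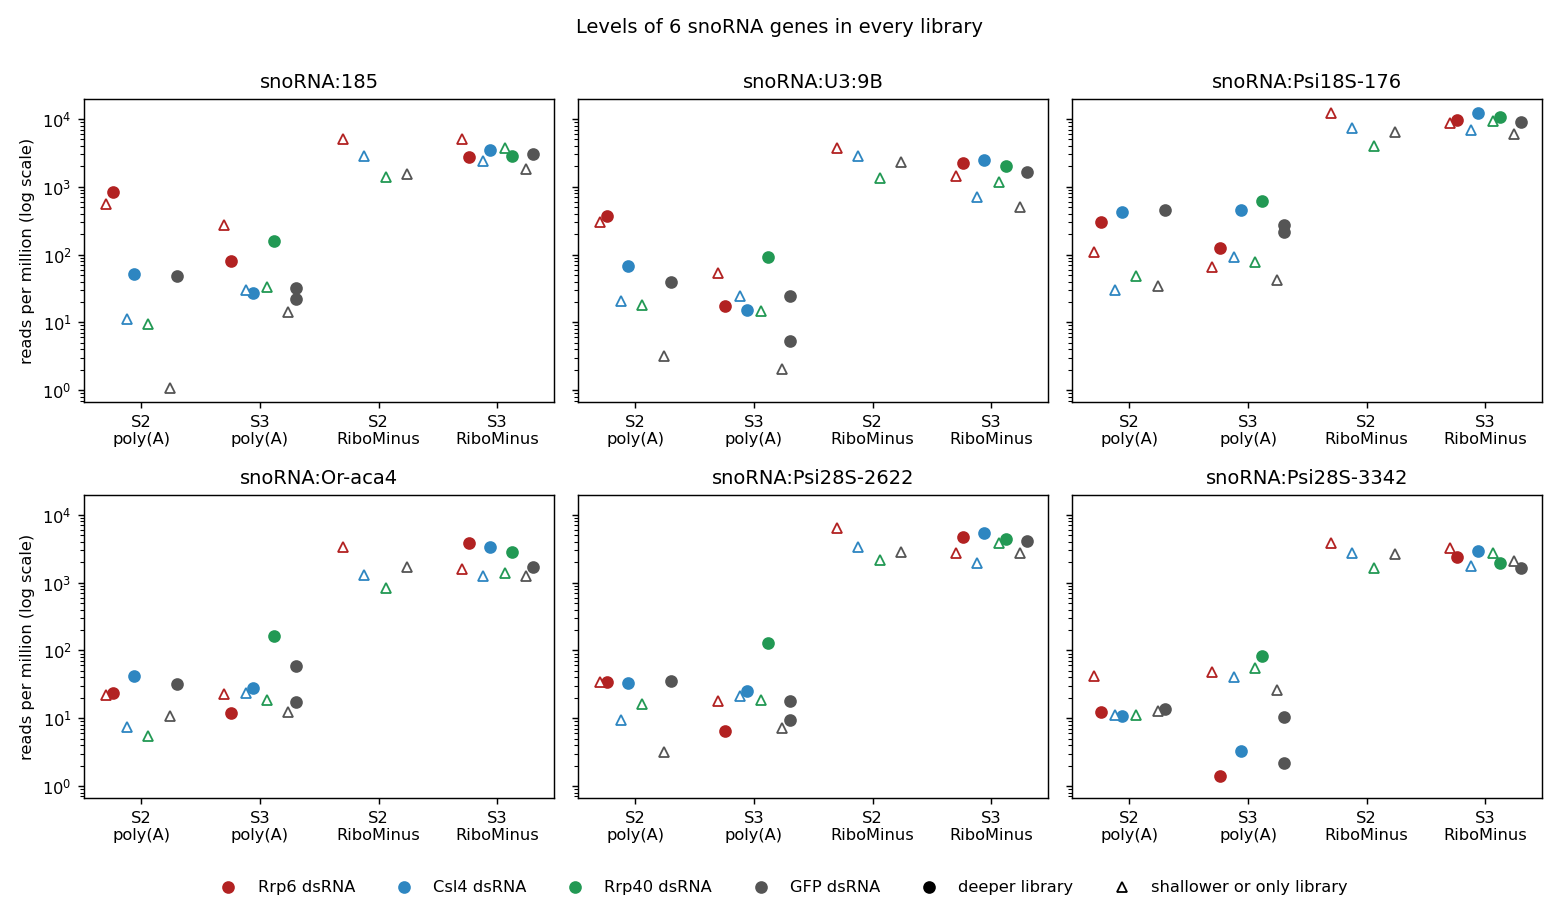
RPM (y axis, log scale) of the 6 snoRNA genes that were among the 5 with the most reads in a line and fraction, by line and fraction (x axis), with 1 symbol per library. In S2 poly(A) RNA both Rrp6 libraries (red) of snoRNA:185 stand at 562 and 848, above all others of that line and fraction.

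In S2 poly(A) RNA under Rrp6 dsRNA, snoRNA:185, snoRNA:U3:9B and snoRNA:Psi28S-1153 rose, 3 of the 7 snoRNA genes tested, and 0 fell. Over all 7905 genes tested in that comparison 20.2% were called higher and 16.9% lower, at an adjusted p of at most 0.05. snoRNA:185 had 848 RPM in the deeper and 562 in the shallower Rrp6 library (4868 and 437 reads), against 47.5 and 1.06 under GFP dsRNA (392 reads and 1 read). The Csl4 libraries, with 51.0 and 11.3, and the Rrp40 library, with 9.61, lay in the range of GFP or just above it. That range is wide, as the GFP libraries differed 44.7-fold. Beside the GFP library of like depth, the deeper Csl4 library stood at 1.07-fold. The shallower Csl4 library stood at 10.6-fold and the Rrp40 library at 9.03-fold, where the GFP side is 1 read. The Rrp6 libraries overlapped with none of the others. The change of snoRNA:185 was 4.89 ± 0.40 on the log2 scale (SE, 2 libraries a group, edgeR quasi-likelihood test with Benjamini-Hochberg adjustment, adjusted p = 8.9e-09). It was called in 7 of 7 fits that left out 1 library, but its size was not settled, running from 4.16 without the shallower Rrp6 library to 8.78 without the deeper GFP library, where the GFP side is 1 read.

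snoRNA:U3:9B, a copy of the U3 RNA of ribosomal RNA processing, had 369 and 302 RPM in the Rrp6 libraries (2120 and 235 reads). The Csl4 libraries had 66.7 and 20.6, the Rrp40 library 17.8 and the GFP libraries 39.3 and 3.19 (324 and 3 reads), so the Rrp6 libraries again stood apart. Its change was 3.91 ± 0.37 (edgeR adjusted p = 5.43e-08), called in 7 of 7 fits that left out 1 library, at 3.24 without the shallower Rrp6 library to 6.30 without the deeper GFP library, where the GFP side is 3 reads. snoRNA:Psi28S-1153, an H/ACA guide for 28S ribosomal RNA, had 6.80 and 16.7 RPM under Rrp6 dsRNA (39 and 13 reads), against 2.30 and 3.19 under GFP dsRNA (19 and 3 reads). The Csl4 libraries had 5.01 and 3.75 RPM, and the Rrp40 library had 7.55 (11 reads), above the deeper Rrp6 library. The Rrp6 and GFP libraries of this gene did not overlap, and its change under Rrp6 dsRNA was 1.78 ± 0.60 (edgeR adjusted p = 0.0227). That call was lost when any of its 4 libraries was left out (adjusted p = 0.0704 to 0.212), and under DESeq2 (adjusted p = 0.0978). Without the block for library depth none of the 3 passed (4.73, 3.86 and 2.08 in the order given, edgeR adjusted p = 0.155, 0.143 and 0.267). In that fit 9 of all 7905 genes were called higher and 0 lower.

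The other tested snoRNA genes of S2 poly(A) RNA were not called under Rrp6 dsRNA. snoRNA:Psi18S-176 had 300 and 109 RPM, against 457 and 34.1 under GFP dsRNA, so the deeper library was below its GFP counterpart and the shallower one above it (0.25 ± 0.35, edgeR adjusted p = 0.618). Without the shallower Rrp6 library snoRNA:Psi18S-176 was called lower (-0.70, edgeR adjusted p = 0.0442), and without the deeper Rrp6 library or the deeper GFP library it was called higher (1.65 and 1.14). snoRNA:Psi28S-2622 stood at 0.65 ± 0.42, snoRNA:Psi28S-3342 at 0.51 ± 0.42 and snoRNA:Or-aca4 at -0.12 ± 0.38 (edgeR adjusted p = 0.229, 0.35 and 0.842). snoRNA:Psi28S-2622 was called higher without the deeper Rrp6 or the deeper GFP library (2.62 and 2.99), and snoRNA:Psi28S-3342 without the deeper Rrp6 library (1.63). The median change of the 7 was 0.65, beside -0.05 over all genes tested. By symbol, 1 of the 4 tested genes with Psi rose, and the 2 other calls had neither Psi nor Me in the symbol. No gene with Me in its symbol passed the filter on low counts. The symbol rule leaves the class of U3 and others unread, so these are not counts of all H/ACA or C/D genes.

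The makeup of the snoRNA reads gives the same levels as shares, for a pair of genes taken from the calls above, so it is no separate result. snoRNA:185 and snoRNA:U3:9B together made up 76.0% of the snoRNA reads in the deeper and 79.3% in the shallower Rrp6 library of S2 poly(A) RNA, against 13.8 and 6.15% under GFP dsRNA. snoRNA:Psi18S-176 made up 18.8 and 10.0% in the Rrp6 libraries, against 72.7 and 49.2% under GFP dsRNA. Its own change was not called (0.25 ± 0.35), and its share falls when reads of other snoRNA genes rise. In S3 poly(A) RNA the pair made up 38.4 and 65.0% under Rrp6 dsRNA, against 10.0, 13.4 and 15% under GFP dsRNA. In both lines each Rrp6 library was above all libraries of the other groups. Between the GFP libraries levels differed by gene. snoRNA:Psi18S-176 was 13.4-fold higher in the deeper than in the shallower library of S2 cells and 5.16- and 6.56-fold higher in the deeper ones of S3 cells, while snoRNA:Psi28S-3342 stood at 1.07-fold in S2 and at 0.0816- and 0.392-fold in S3 cells. The deeper and shallower libraries also carry different replicate numbers, and the part of either in the makeup was not tested.

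**Figure D3:**
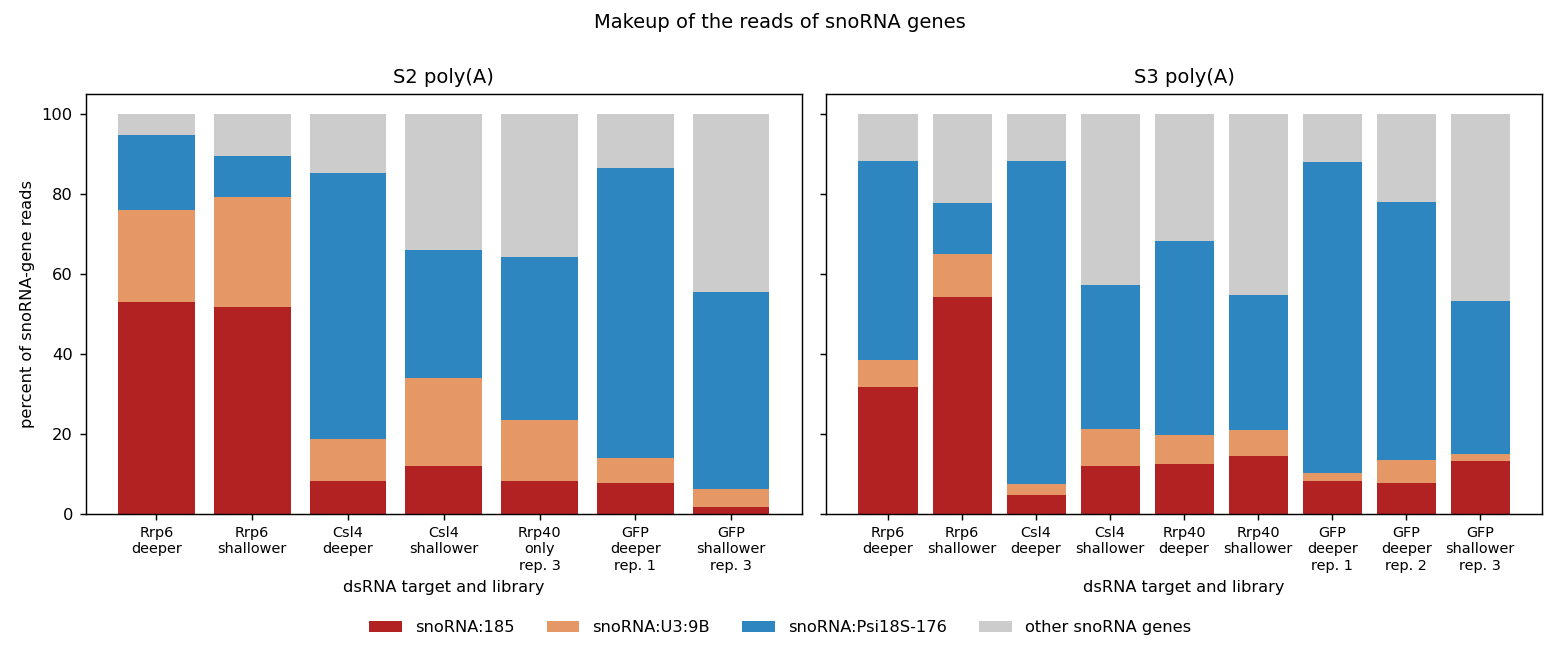
Percent of the reads of snoRNA genes (y axis) that came from snoRNA:185, snoRNA:U3:9B, snoRNA:Psi18S-176 and the other snoRNA genes, with 1 bar per poly(A) library (x axis). The first pair makes up 76.0 and 79.3% in the Rrp6 libraries of S2 cells, against 13.8 and 6.15% under GFP dsRNA.

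Under Csl4 dsRNA 0 of the 7 snoRNA genes were called in S2 poly(A) RNA, where 1.82% of all genes tested were called higher and 0.139% lower. At an unadjusted p under 0.05 there was 1, snoRNA:U3:9B, at 0.92 ± 0.36 (edgeR adjusted p = 0.264), and DESeq2 called 0. Without the deeper GFP library snoRNA:U3:9B and snoRNA:185 were called (3.47 and 4.40, edgeR adjusted p = 8.01e-05 and 0.000248), where the GFP side rested on 3 reads and 1 read, and without the shallower Rrp6 library snoRNA:U3:9B was called (0.89). Under Rrp40 dsRNA, where the lone library is taken to vary as much as the replicated ones, 0 of 7 were called (0 at an unadjusted p under 0.05, and 0 by DESeq2). Over all genes 0.101% were called higher and 0% lower in that comparison. The Rrp40 library is replicate 3, and beside GFP replicate 3 it had 14 reads against 1 for snoRNA:185 (9.61 and 1.06 RPM), 26 against 3 for snoRNA:U3:9B (17.8 and 3.19 RPM) and 24 against 3 for snoRNA:Psi28S-2622 (16.5 and 3.19 RPM). For these 3 genes the authors' deposited table, which sets these 2 libraries against each other, gave p = 0.0383, 0.011 and 0.0182 and an adjusted p of 1. The change of snoRNA:185 ran from -1.43 to 3.08 when 1 library was left out, with 3 of 7 genes at an unadjusted p under 0.05 without the deeper GFP library, 4 of 9 without the shallower one and 0 called in either, so its direction was not settled. Beside this, 4 of 9 small nuclear RNA (snRNA) genes tested, taken by a symbol starting with snRNA:, rose under Csl4 and 2 of 9 under Rrp40 dsRNA. Under Rrp6 dsRNA 7 of 9 rose, where 20.2% of all genes were called higher. In S3 poly(A) RNA under Rrp6 dsRNA 4 of 7 snRNA genes rose, where 19.7% of all genes were called higher. In S3 RiboMinus RNA 0 of 11 rose and 3 fell, where 12.4% of all genes were called higher and 7.35% lower.

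In S3 poly(A) RNA under Rrp6 dsRNA snoRNA:185 rose, 1 of the 8 snoRNA genes tested, and 0 fell, where 19.7% of the 7923 genes tested were called higher and 16.4% lower. snoRNA:185 had 79.3 and 273 RPM in the Rrp6 libraries (458 and 288 reads), against 22.3 and 31.9 in the deeper and 14.2 in the shallower GFP libraries (124, 2212 and 14 reads). The Rrp6 and GFP libraries did not overlap, with the higher Rrp6 value in the shallower library. The Rrp40 libraries had 156 and 33.2 RPM, the deeper one above the deeper Rrp6 library, and the Csl4 libraries 26.8 and 30.3. Under Rrp40 dsRNA the change was 2.08 ± 0.57 and not called (edgeR adjusted p = 0.457). The change under Rrp6 dsRNA was 2.66 ± 0.62 (2 and 3 libraries, edgeR adjusted p = 0.00895). It was called in 9 of 9 fits that left out 1 library, at 1.17 without the shallower and 3.95 without the deeper Rrp6 library, and also without the block (2.89, edgeR adjusted p = 0.0224).

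snoRNA:U3:9B had 17.1 and 54.0 RPM under Rrp6 dsRNA in S3 poly(A) RNA, against 5.39, 24.8 and 2.03 under GFP dsRNA. The deeper Rrp6 library lay within the GFP range, and the change of 1.26 ± 0.90 was not called (edgeR adjusted p = 0.303). By the labels the Rrp6 and Csl4 libraries are replicates 1 and 3 and the Rrp40 libraries 2 and 3, so GFP replicate 2, at 24.8, has no Rrp6 library of its number. Both Rrp6 libraries were above GFP replicates 1 and 3 of like depth (17.1 against 5.39, and 54.0 against 2.03, which is 2 reads), and without GFP replicate 2 the gene was called (2.71, edgeR adjusted p = 0.0421). Without the filter on low counts snoRNA:U3:9B was also called higher (1.16, edgeR adjusted p = 0.00997) and snoRNA:Or-aca4 lower (-1.02, edgeR adjusted p = 0.0209). snoRNA:Psi28S-1153 had 4.33 and 16.1, against 3.41, 2.49 and 3.05 under GFP dsRNA, with no overlap, and its change was 1.08 ± 0.59 (edgeR adjusted p = 0.176). snoRNA:Psi18S-176 stood at -0.44 ± 0.36 and snoRNA:Or-aca4 at -0.92 ± 0.80 (edgeR adjusted p = 0.363 and 0.395), and both were called lower without the shallower Rrp6 library (-1.32 and -2.06). The median of the 8 changes was 0.40, beside 0.01 over all genes tested.

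The responses of the lines to Rrp6 dsRNA were compared directly by an interaction term in a joint edgeR fit. The S2 change exceeded the S3 change by 2.44 ± 1.05 for snoRNA:185 and by 2.95 ± 1.26 for snoRNA:U3:9B, and neither difference was called (edgeR adjusted p = 0.28 and 0.275). None of the 8 snoRNA genes tested was called, where 0.835% of 8984 genes were called higher in S2 and 1.8% lower. Without the shallower Rrp6 S3 library both were called (3.66 and 4.08, edgeR adjusted p = 0.00635 and 0.0191).

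Under Csl4 dsRNA 0 of 8 snoRNA genes were called in S3 poly(A) RNA (2 at an unadjusted p under 0.05, 0 by DESeq2), where 0.227% of all genes were called higher and 0.0126% lower. The 2 were snoRNA:Psi28S-1153 (1.57 ± 0.58) and snoRNA:Psi18S-176 (0.82 ± 0.33), with edgeR adjusted p = 0.363 and 0.406. snoRNA:Psi28S-1153 had 6.87 and 17.2 RPM in the Csl4 libraries, against 3.41, 2.49 and 3.05 under GFP dsRNA.

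Under Rrp40 dsRNA in S3 poly(A) RNA all 8 snoRNA genes tested had a positive change, between 1.13 and 2.86, with a median of 2.17 beside 0.01 over all genes, and 0 of 8 were called. Of all 7923 genes 0% were called higher and 0% lower. At an unadjusted p under 0.05 there were 8 of the 8 snoRNA genes, beside 5.52% of all genes tested, and edgeR's adjusted p for the 8 lay between 0.236 and 0.798. The largest changes were those of snoRNA:Psi28S-3342 (2.86 ± 0.83), snoRNA:Psi28S-2622 (2.71 ± 0.58) and snoRNA:Psi18S-301 (2.51 ± 0.81). snoRNA:Psi28S-2622 had 129 and 18.3 RPM in the Rrp40 libraries, against 9.34, 17.9 and 7.11 under GFP dsRNA. Both Rrp40 libraries were above the GFP libraries, the deeper one by far. snoRNA:Psi18S-176 had 615 and 78.0, against 215, 273 and 41.6 under GFP dsRNA, and there the shallower Rrp40 library lay within the GFP range.

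The unadjusted p-values of these genes under Rrp40 dsRNA rested on the deeper library. In the shallower library snoRNA:Psi18S-176, snoRNA:Or-aca4 and snoRNA:U3:9B lay within the range of the GFP libraries. There snoRNA:Or-aca4 had 18.3 RPM, against 17.1, 59.7 and 12.2 under GFP dsRNA, and snoRNA:U3:9B 14.9, against 5.39, 24.8 and 2.03. The deeper library stood above GFP replicate 2 by 2.25-fold for snoRNA:Psi18S-176 up to 7.88-fold for snoRNA:Psi28S-3342, and above GFP replicate 1, where snoRNA:Psi28S-3342 had 12 reads, by 2.86- and 37.9-fold for the same genes. In the shallower library all 8 genes were above GFP replicate 3, on few reads. snoRNA:185 had 20 reads against 14 (2.34-fold per assigned read), snoRNA:Psi18S-176 47 against 41 (1.87), snoRNA:Psi28S-3342 33 against 26 (2.08), snoRNA:Psi28S-2622 11 against 7 (2.57) and snoRNA:Or-aca4 11 against 12 (1.5). The other 3 had at most 3 GFP reads there, with 9 against 2 for snoRNA:U3:9B, 5 against 3 for snoRNA:Psi28S-1153 and 2 against 2 for snoRNA:Psi18S-301. Without the deeper library the changes ran from -0.45 (snoRNA:Or-aca4) to 0.97 (snoRNA:Psi18S-301) and none was at an unadjusted p under 0.05. The number called turned on the setting, with 1 by DESeq2 (snoRNA:Psi28S-2622, 2.66, adjusted p = 0.0374), 3 from the Rrp40 and GFP libraries alone, 8 without the filter on low counts and 3 without the shallower Rrp6 library. Without the deeper Rrp6 library, or the shallower Rrp40 library, 1 was called, snoRNA:Psi28S-2622. Over all genes, DESeq2 called 46 of 11123 higher and 4 lower. From the Rrp40 and GFP libraries alone 25 of 7720 were called higher and 1 lower, and without the filter 90 of 12588 and 3. In the reported fit the 7 snRNA genes tested under Rrp40 dsRNA had a median change of 2.15, and 0 were called.

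In S3 RiboMinus RNA under Rrp6 dsRNA 4 of the 9 snoRNA genes tested rose, snoRNA:U3:9B, snoRNA:Psi28S-1153, snoRNA:Or-aca4 and snoRNA:185, and 0 fell. Of the 8286 genes tested there, 12.4% were called higher and 7.35% lower. snoRNA:U3:9B had 2223 and 1456 RPM in the Rrp6 libraries, against 1646 and 499 under GFP dsRNA, and the groups overlapped while each Rrp6 library exceeded the GFP library of like depth. Its change was 1.06 ± 0.28 (edgeR adjusted p = 0.00211). snoRNA:Psi28S-1153 had 264 and 288, against 138 and 166 under GFP dsRNA, without overlap (1.01 ± 0.30, edgeR adjusted p = 0.00722).

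snoRNA:Or-aca4 had 3889 and 1604 RPM under Rrp6 dsRNA in S3 RiboMinus RNA, against 1704 and 1237 under GFP dsRNA (0.92 ± 0.28, edgeR adjusted p = 0.00854). Its groups overlapped, and the excess was larger in the deeper library. snoRNA:185 had 2744 and 5038, against 3023 and 1859 under GFP dsRNA (0.75 ± 0.28, edgeR adjusted p = 0.042), and here the deeper Rrp6 library was below the deeper GFP library. The call of snoRNA:185 held in 1 of 8 fits that left out a library, the one without the shallower Rrp40 library. It was also lost under DESeq2 (adjusted p = 0.253), and in edgeR without the filter on low counts (adjusted p = 0.0949) and from the Rrp6 and GFP libraries alone (adjusted p = 0.0818). The other 5 tested genes were not called, snoRNA:Psi28S-3342 at 0.71 ± 0.28 (edgeR adjusted p = 0.0507, and 0.0374 with RLE scaling) nearest to the threshold. snoRNA:Me18S-A1806, the tested gene with Me in its symbol, stood at -0.47 ± 0.37. The median of the 9 was 0.71, beside 0.07 over all genes.

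These calls rested on few libraries. In the reported fit the weight on the spread shared by all genes (prior degrees of freedom) was infinite. A gene's own spread between libraries thus had no weight in its p-value. The call of snoRNA:185 was made this way, although its deeper and shallower pairs went opposite ways (0.908- and 2.71-fold). Leaving out the deeper GFP library left 0 called, and leaving out the deeper Rrp6 library left 1, snoRNA:U3:9B. snoRNA:U3:9B lost its call without the deeper GFP library (edgeR adjusted p = 0.0665), the shallower GFP library (0.234) or the shallower Rrp6 library (0.134), and without the shallower Rrp40 library 6 genes were called. snoRNA:Psi28S-1153 and snoRNA:Or-aca4 each lost their call without the deeper GFP or the deeper Rrp6 library. Without the block for depth 0 were called, with adjusted p = 0.44 to 0.72 for the 4. In that fit 15 of all 8286 genes were called higher and 0 lower.

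Under Csl4 dsRNA 1 of the 9 genes rose in S3 RiboMinus RNA, where 1.69% of all genes were called higher and 0.471% lower. snoRNA:Psi28S-1153 had 445 and 322 RPM, against 138 and 166 under GFP dsRNA, with no overlap, and its change was 1.41 ± 0.30 (edgeR adjusted p = 0.000436). The call was lost without the deeper Csl4 library (0.99, edgeR adjusted p = 0.479), without the deeper GFP library (1.26, edgeR adjusted p = 0.389) and without the block (1.35, edgeR adjusted p = 1). Under Rrp40 dsRNA 0 of 9 were called (2 at an unadjusted p under 0.05, 0 by DESeq2), where 0.193% of all genes were called higher and 0.0241% lower. The same gene had 295 and 313 in the Rrp40 libraries, again above both GFP libraries, with a change of 1.08 ± 0.30 (edgeR adjusted p = 0.115, and 0.0459 from the Rrp40 and GFP libraries alone). The other gene at an unadjusted p under 0.05 was snoRNA:U3:9B, at 0.78 ± 0.28 (edgeR adjusted p = 0.611).

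**Figure D4:**
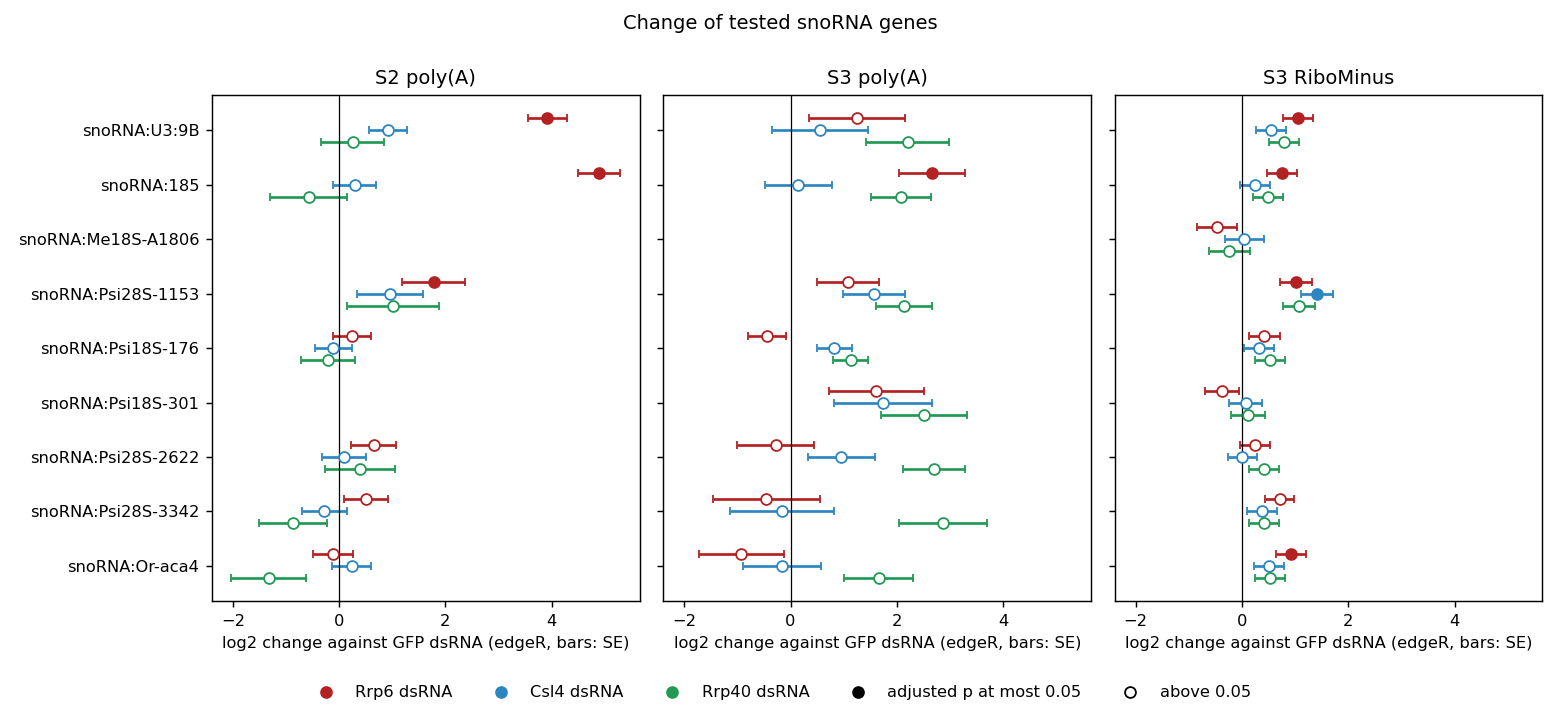
Log2 change against GFP dsRNA with its SE (x axis, edgeR) of each tested snoRNA gene (y axis) under Rrp6, Csl4 and Rrp40 dsRNA in the 3 line and fraction sets with replicates; filled symbols have an adjusted p of at most 0.05. snoRNA:185 and snoRNA:U3:9B lie far to the right in S2 poly(A) RNA, at 4.89 and 3.91, and every Rrp40 change in S3 poly(A) RNA is positive.

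The Rrp6 response of the 2 fractions in S3 cells was also compared by an interaction term. The poly(A) change of snoRNA:185 exceeded the RiboMinus change by 2.00 ± 0.75 and that of snoRNA:Psi18S-301 by 1.9 ± 0.78, while snoRNA:Or-aca4 differed by -1.73 ± 0.82 (edgeR adjusted p = 1 for each). 0 of 9 snoRNA genes were called, with 0% of 8721 genes called higher and 0% lower. The difference of snoRNA:185 was called without the deeper Rrp6 poly(A) library (3.23, edgeR adjusted p = 0.0347). Without the shallower one those of snoRNA:Or-aca4 (-2.99, edgeR adjusted p = 0.00271) and snoRNA:Psi28S-3342 (-3.55, edgeR adjusted p = 0.0142) were called.

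The level in poly(A) RNA relative to RiboMinus RNA was set side by side without a test. For snoRNA:185 the mean RPM in poly(A) libraries came to 14.1% of that in RiboMinus RNA under Rrp6, 1.10% under Csl4, 0.681% under Rrp40 and 1.60% under GFP dsRNA in S2 cells. In S3 cells the values were 4.53% under Rrp6, 0.976% under Csl4, 2.87% under Rrp40 and 0.933% under GFP dsRNA. For snoRNA:U3:9B they were 9.10% under Rrp6, 1.53% under Csl4, 1.34% under Rrp40 and 0.916% under GFP dsRNA in S2 cells, and 1.93%, 1.22%, 3.34% and 1.00% in S3 cells in the same order, with the highest S3 value under Rrp40 dsRNA. snoRNA:Psi18S-176 stood at 1.70% under Rrp6, 3.05% under Csl4, 1.22% under Rrp40 and 3.82% under GFP dsRNA in S2 cells, and at 1.04%, 2.87%, 3.45% and 2.34% in S3 cells. Each S2 value has 1 RiboMinus library below it, and a library's total differs in kind between fractions, so these are descriptions of the libraries.

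In S2 RiboMinus RNA, with 1 library a group and no test, snoRNA genes took more of the reads under Rrp6 than under GFP dsRNA. The 2440 snoRNA reads under Rrp6 dsRNA and 1189 under GFP dsRNA gave a ratio of 1.97 in RPM (95% exact counting interval 1.84 to 2.12). Among genes with at least 20 reads, snoRNA:185 had the largest ratio, 3.29 (2.63 to 4.13), with 4996 RPM under Rrp6 and 1520 under GFP dsRNA. snoRNA:Psi28S-2622 followed with 2.26 and snoRNA:Or-aca4 with 1.97, and the smallest were snoRNA:Psi28S-3342 with 1.48, snoRNA:U3:9B with 1.59 and snoRNA:Psi18S-176 with 1.88. All 6 lay above 1. The intervals cover counting error only, as do the other intervals given, and reads without molecular identifiers are not independent molecules.

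Under Csl4 dsRNA the ratio over all snoRNA genes was 1.17 (1.08 to 1.26) in S2 RiboMinus RNA. snoRNA:185 again had the largest, 1.86 (1.47 to 2.38), before snoRNA:U3:9B with 1.23 and snoRNA:Psi28S-2622 with 1.16, and snoRNA:Or-aca4 had 0.776, snoRNA:Psi28S-3342 1.03 and snoRNA:Psi18S-176 1.14. Under Rrp40 dsRNA the direction turned on the scaling. The ratio over all snoRNA genes was 0.651 (0.604 to 0.701) in RPM, 0.875 (0.813 to 0.942) when reads of the 3 targeted genes were left out of the total, and 1.13 in the means of the authors' deposited table. Reads of the targeted genes were 25.7% of the Rrp40 library and 18.4% of the Rrp6 library, against 0.0458% of the GFP library. On the RPM scale snoRNA:185 had the largest ratio, 0.928, before snoRNA:Psi28S-2622 with 0.748 and snoRNA:Psi28S-3342 with 0.623, and the smallest were snoRNA:Or-aca4 with 0.502, snoRNA:U3:9B with 0.573 and snoRNA:Psi18S-176 with 0.613. Without the targeted genes snoRNA:185 stood at 1.25 and snoRNA:Psi28S-2622 at 1.01, and the authors' deposited table gave them ratios of 1.62 and 1.30, so their direction turned with the scaling as well.

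**Figure D5:**
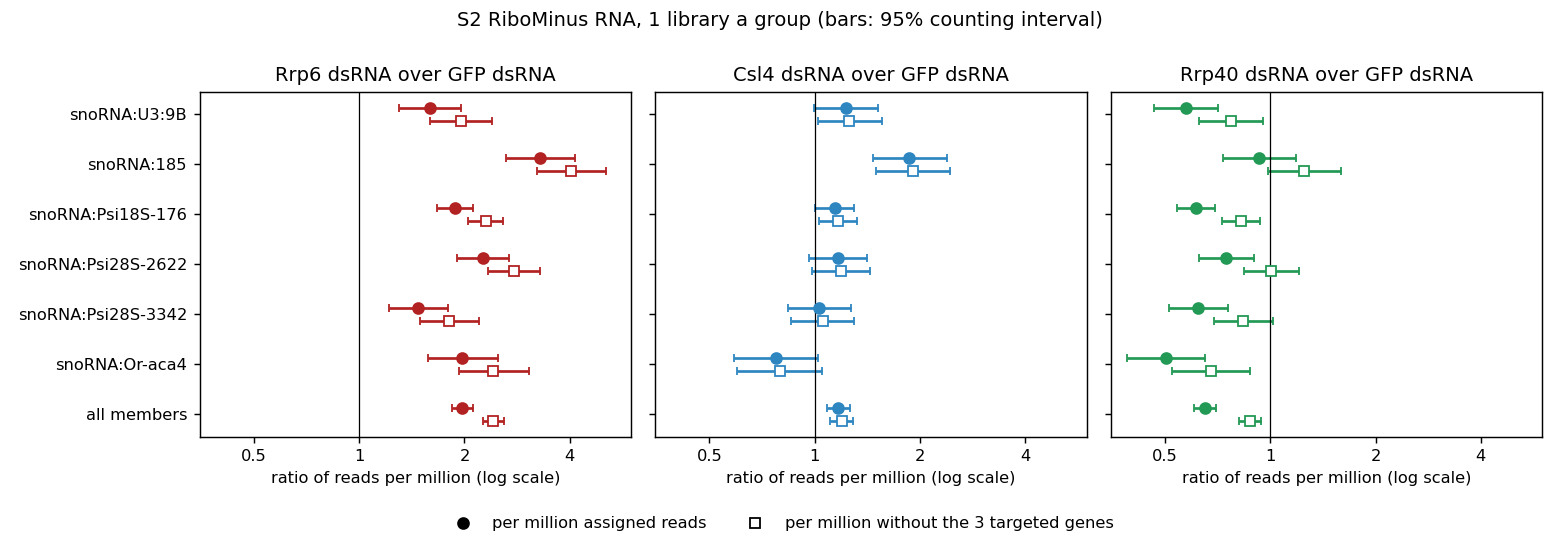
Ratio of RPM under Rrp6, Csl4 and Rrp40 dsRNA over GFP dsRNA (x axis, log scale) for 6 snoRNA genes and for all snoRNA genes together (y axis) in S2 RiboMinus RNA, with 95% counting intervals, over all assigned reads (filled) and without the 3 targeted genes (open). Under Rrp6 dsRNA all points lie right of 1, and the Rrp40 points move with the scaling.

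The authors' deposited tables of the Rrp6 knockdown called 4 snoRNA results at their adjusted p of at most 0.05, and those of Rrp40 called 1. In S2 poly(A) RNA the authors' deposited table gave snoRNA:185 a ratio of 29.3 (adjusted p = 0.00133) and snoRNA:U3:9B 15.9 (0.0202), beside 0.462% of all genes called. In S3 poly(A) RNA the authors' deposited table gave snoRNA:185 9.10 (0.0465), beside 2.45% called. In S3 RiboMinus RNA it was snoRNA:U3:54Ab that the authors' deposited table called, at a ratio of 23.1 (0.000234), beside 2.80% called. This second U3 copy had 25 reads in the deeper and 0 in the shallower Rrp6 library, against 1 and 0 under GFP dsRNA, and it did not pass the edgeR filter on low counts. Under Rrp6 dsRNA it had 16 and 0 reads in S2 poly(A) RNA, against 0 and 0 under GFP dsRNA, and 9 and 0 reads in S3 poly(A) RNA, against 1, 6 and 0. Without the filter edgeR called snoRNA:U3:54Ab in the 3 sets (adjusted p = 0.0054 for S2 poly(A), 0.0316 for S3 poly(A) and 0.0264 for S3 RiboMinus), each time on the reads of 1 Rrp6 library, so no size is given.

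In S3 poly(A) RNA under Rrp40 dsRNA the authors' deposited table called snoRNA:Me18S-A1806, a C/D guide for 18S ribosomal RNA, at a ratio of 3.28 (adjusted p = 3.28e-05), beside 1.73% of genes called. It had 145 and 0 reads there, against 55 and 0 in GFP replicates 2 and 3, the GFP libraries of that table. The authors' deposited tables called 0 snoRNA genes in the other 8. Their shares of genes called were 0% for Rrp6 in S2 RiboMinus RNA, 0.0722% and 0.0258% for Rrp40 in S2 poly(A) and RiboMinus RNA, and 0.204% for Rrp40 in S3 RiboMinus RNA. For Csl4 dsRNA they were 0.0164% for S2 and 0.00944% for S3 cells in poly(A) RNA, and 0.0131% for S2 and 0.436% for S3 cells in RiboMinus RNA.

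Of the genes whose products act with snoRNAs, these were called under Rrp6 dsRNA, beside the shares of all genes called, which for S2 poly(A) were 20.2% higher and 16.9% lower, for the S3 poly(A) set 19.7% and 16.4%, and for the S3 RiboMinus set 12.4% and 7.35%. Of the 4 H/ACA particle proteins, NHP2 fell in S2 poly(A) RNA (-0.73 ± 0.23, edgeR adjusted p = 0.0147), and 0 of 4 were called in either S3 fraction. Of the C/D proteins with a test, Nop56 fell in S2 poly(A) RNA (-0.67 ± 0.19, edgeR adjusted p = 0.00984) and Fib, the methyltransferase fibrillarin, fell in S3 RiboMinus RNA (-0.86 ± 0.31, edgeR adjusted p = 0.0292), with 0 of 2 called in S3 poly(A) RNA. Of the genes of the nuclear helicase and tailing machinery, Trf4-1, a noncanonical poly(A) polymerase, rose in S3 poly(A) RNA (0.81 ± 0.26, edgeR adjusted p = 0.0367). It was the one call of the 3, 4 and 4 such genes tested in these sets.

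The Uhg genes, whose transcripts host snoRNAs, were called in 1 of 7 cases in S2 poly(A) RNA, where Uhg4 fell (-1.21 ± 0.32, edgeR adjusted p = 0.0048). Of the 7 tested in S3 poly(A) RNA 2 rose, Uhg3 (1.44 ± 0.40, edgeR adjusted p = 0.019) and Uhg5 (1.07 ± 0.34, edgeR adjusted p = 0.0316). In S3 RiboMinus RNA 0 of 6 were called. These counts stand beside 20.2% of all genes higher and 16.9% lower in the S2 poly(A) set, 19.7% and 16.4% in the S3 poly(A) set and 12.4% and 7.35% in the S3 RiboMinus set. In bulk RNA of this kind, fewer cells that express a gene and less RNA per cell cannot be told apart.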

How the data were processed

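RNA-seq of S2 and S3 cells was deposited as 12 tables, 1 per knockdown, line and fraction. Per the submitters' processing notes, the RNA data passed through DESeq 1.9.11, HTSeq 0.5.3p9, TopHat 1.4.1, cutadapt 1.0 and CASAVA 1.8 (named in no order of use) with build dm3. The sources used here do not give whether counting used strand. Per the file headers, the authors' tables hold, per gene, group means of counts after scaling by size factors (a signal value), a fold change (a ratio of these means), its log2 value, and the deposited p-value with its adjusted p-value.

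Whole reads of each library were recovered from the deposited means, which are sums of whole reads divided by size factors. At least 99.9867% of the 15070 values of a table and group came out whole, and on simulated data the recovery returned all values. The 34 RNA samples of the labels include repeat runs of 1 library, counted once here, which leaves 28 libraries. Recovered libraries are matched to a group, not always to a numbered sample, so libraries of a group are called deeper and shallower. The design named a test on counts for the case that counts could be had in this way.

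Tests used edgeR 4.0.16 in R 4.3.3 (quasi-likelihood, TMM scaling, filterByExpr, Benjamini-Hochberg adjustment over all genes tested, threshold 0.05) on all libraries of a line and fraction, with the deeper or shallower library as a block. It stands for the planned block of replicate 3 against replicates 1 and 2. In the GFP poly(A) libraries the shallower one is replicate 3, as shown by the tables that share it, while the knockdown libraries are placed by depth alone. The block was kept since deviations from the group means correlated between libraries of like depth of different groups (0.253 to 0.348 in S3 RiboMinus libraries, 0.352 to 0.633 for S3 poly(A), 0.653 to 0.686 for S2 poly(A)). SE is the log2 change divided by the square root of F. The fits were tested on simulated data with known changes, for Rrp6 against GFP dsRNA. Of 2-fold changes 46.8% were returned for S2 poly(A), 18.8% for S3 poly(A) and 17.9% for S3 RiboMinus. Of 4-fold changes 89.2%, 87.5% and 84.8% were returned in the same order. A gene that was not called may thus still have changed. Alternatives were DESeq2 1.42.0, other scaling, no filter, no block, each knockdown with GFP alone, and each library left out.

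Named genes were, per comparison, up to 5 called members in each direction, per line and fraction the 5 members with the most reads, and for S2 RiboMinus RNA the 3 largest and 3 smallest ratios among genes with at least 20 reads; other genes named were chosen after their values were seen. The members and lists were chosen with earlier results of these data known. Of the 15065 IDs 14085 were matched to a symbol. Enclosing genes were found from the start and end positions of genes in RefSeq Release 6, and no coordinates are printed. The genes hoip, Mhc and vas and the ChIP peak lists were not analysed here.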

Additional observations from a re-analysis of the deposited data

How the results depend on the processing

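With no replicate block for depth, 0 snoRNA genes were called under Rrp6 dsRNA in S2 poly(A) and S3 RiboMinus RNA and 0 under Csl4 dsRNA in S3 RiboMinus RNA. Over all genes that setting called 9 of 7905, 15 of 8286 and 1 of 8286 higher in the same order, and 0 lower in each. Without the filter on low counts 4 were called under Rrp6 and 8 under Rrp40 dsRNA in S3 poly(A) RNA, where DESeq2 called 1 under Rrp40 dsRNA. Over all 12588 genes without the filter, 2832 were called higher and 1672 lower under Rrp6 dsRNA. Under Rrp40 dsRNA 90 were called higher and 3 lower, and DESeq2 called 46 of 11123 higher and 4 lower. From each knockdown's own libraries with GFP, 1 was called under Rrp40 dsRNA in S3 RiboMinus and 3 in S3 poly(A) RNA. Over all genes these fits called 16 of 7545 and 25 of 7720 higher, and 7 and 1 lower. Leaving out 1 library gave 3 to 5 (Rrp6) and 0 to 2 (Csl4) called in S2 poly(A) RNA, 1 to 3 (Rrp6) and 0 to 3 (Rrp40) in S3 poly(A) RNA, 0 to 6 (Rrp6) and 0 to 1 (Csl4) in S3 RiboMinus RNA, and 0 to 2 in each interaction. snoRNA:Psi18S-176 under Rrp6 dsRNA in S2 poly(A) RNA ran from -0.70 to 1.65. Leaving out a library also moved the number of all genes called. The cause of these changes was not tested.

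In S2 RiboMinus RNA the ratio over all snoRNA genes was 2.57 (Rrp6), 1.32 (Csl4) and 1.13 (Rrp40) in the authors' deposited means. Without reads of the targeted genes, an alternative chosen after seeing the data, it was 2.42 for Rrp6 and 0.875 for Rrp40 dsRNA. The snoRNA share of reads then became 4.24% (Rrp6) and 1.54% (Rrp40) in S2 RiboMinus RNA, and 2.65% (deeper Rrp6), 3.08% (deeper Csl4) and 2.47% (shallower Rrp40) in S3 RiboMinus RNA. Shallow libraries limit the rarest genes, since a count of 0 allows up to 3 reads.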

Other observations

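The genes that enclose the snoRNA genes listed at 0 had reads of their own, and this set was chosen after values were seen. Under Rrp6 dsRNA 5 rose and 12 fell of 53 tested in S2 poly(A) RNA (median log2 change -0.10), 5 rose and 28 fell of 54 in S3 poly(A) RNA (-0.99), and 3 rose and 22 fell of 53 in S3 RiboMinus RNA (-0.47), by edgeR at an adjusted p of at most 0.05. Over all genes tested, for S2 poly(A) 20.2% rose and 16.9% fell, for the S3 poly(A) set 19.7% and 16.4%, and for the S3 RiboMinus set 12.4% and 7.35%.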
